A study of Mus musculus with 95 samples.

Results

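Type I interferons are secreted alarm proteins that almost every cell can sense. Binding to their receptor activates the kinases JAK1 and TYK2, which phosphorylate STAT proteins such as STAT2, and STAT2 works with IRF9 in a complex that binds interferon-stimulated response elements and switches on a shared set of antiviral genes. In the brain, microglia and astrocytes carry much of this response, and the same genes are known to be read at a low level in tissues without infection. Described here are 34 such interferon-stimulated genes of the mouse, taken by symbol from the 55291 distinct gene symbols of the deposited count table. They were chosen by name as known members of this response, and each of the 34 symbols was present. The choice was made with earlier results of these data known, so the list is not independent of them.

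The libraries come from C57BL/6J mice of both sexes in 3 groups. TLS mice had spent 3 months in a torpor-like state and were 205 days old, control mice had lived through the same 3 months without it and were also 205 days old, and time-0 (T0) mice were taken at the start, at 122 days. The first group is labelled "Stim", and its name TLS is taken from the title of the series. The sources used here give neither how the state was induced nor how controls were handled. Each group had 4 M and 4 F animals, and each animal gave cortex, liver, kidney and white adipose tissue (WAT), from which polyadenylated RNA was sequenced in 1 batch after perfusion. Control WAT had 7 libraries, since 1 control animal, 9BA4, gave none, and there were 95 libraries in all. T0 mice were younger as well as unexposed to the 3 months, so age and time in the study cannot be told apart in any comparison with them.

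Total counts per library lay between 14299369 and 22962145 in cortex, 8217875 and 28337864 in kidney, 4031533 and 29269511 in liver, and 15881766 and 29089492 in WAT. Nearly all tissue markers were highest in their own tissue. The neuronal glutamate transporter Slc17a7 was at least 1170 CPM (a gene's counts scaled to the size of its library) in every cortex library and at most 8.97 CPM elsewhere. Umod of the kidney tubule, Alb of the liver and Adipoq of fat cells likewise had their lowest library in their own tissue far above their highest library in any other tissue. Over the lists, 5 of 6 cortex markers, 6 of 6 kidney markers, 5 of 6 liver markers and 6 of 6 fat markers had no overlap with the other tissues; Aqp4 (lowest cortex library 56.8 CPM, highest elsewhere 82.5 CPM) and Cyp2e1 (lowest liver library 2370 CPM, highest elsewhere 11100 CPM) did overlap. Over all genes tested, animals of a group differed least in cortex (edgeR's common biological coefficient of variation 0.144) and more in kidney (0.268). They differed most in liver (0.377) and WAT (0.39). Most members had their lowest level in cortex, so this spread does not by itself say where their changes were easiest to detect. In cortex the summed share of the nuclear RNAs Malat1, Neat1 and Meg3 was 0.2094% to 0.3175% of counts in TLS libraries, against 0.5774% to 0.6811% in M controls, 0.2139% to 0.4174% in F controls and 0.4523% to 0.6029% in T0 libraries.

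Some libraries stood apart for these genes. TLS animals B4B9 (F) and A5DA (M) were high in several tissues, and the results of the list and of the genes around it are given with and without them. In WAT, T0 animal T0_6 had 460.9 CPM of summed T and NK cell markers, against a median of 12.64 CPM over the T0 libraries, and without it the numbers of genes of the list that passed the test there were unchanged at 1 for control against T0 and 0 for TLS against T0. The kidney libraries of T0_4 and T0_5 carry M and F labels opposite to those of the same animal names in the other tissues. Whether they come from the same animals is thus unclear. They were used as labelled, also where sex was tested in kidney.

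The response element that defines the family can be read in the promoters of its members. It is built of GAAA blocks spaced by a pair of bases, and GAAANNGAAA was searched on both strands of RefSeq promoter windows of build GRCm38.p6, each running from 250 bases before to 50 after a gene's start. Of the 34 genes, 24 had a window, and 12 of those had a match. Counted by window, 13 of 27 windows of the list held a match (48.1%), against 1131 of 32851 windows of all genes (3.44%), and some matches overlap each other where several blocks follow in a row. The promoters shown come from the IFIT and OAS families, the ISG15 system and the other antiviral effectors, as 5′ to 3′ on the gene's own strand, with the GAAA blocks of a match in capitals, which read TTTC where the match lies on the opposite strand. Ifit3 lies at chr19:34583279-34583578 (plus strand), its near copy Ifit3b at chr19:34607707-34608006 (plus), Isg15 at chr4:156200769-156201068 (minus), Oas1a at chr5:120907476-120907775 (minus) and Rsad2 at chr12:26456403-26456702 (minus).
Ifit3: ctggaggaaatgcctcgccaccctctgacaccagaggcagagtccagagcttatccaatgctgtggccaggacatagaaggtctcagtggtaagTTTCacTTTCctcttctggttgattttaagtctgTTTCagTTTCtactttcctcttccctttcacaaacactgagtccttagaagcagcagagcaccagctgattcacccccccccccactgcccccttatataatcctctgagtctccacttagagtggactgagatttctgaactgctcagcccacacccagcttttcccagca
Ifit3b: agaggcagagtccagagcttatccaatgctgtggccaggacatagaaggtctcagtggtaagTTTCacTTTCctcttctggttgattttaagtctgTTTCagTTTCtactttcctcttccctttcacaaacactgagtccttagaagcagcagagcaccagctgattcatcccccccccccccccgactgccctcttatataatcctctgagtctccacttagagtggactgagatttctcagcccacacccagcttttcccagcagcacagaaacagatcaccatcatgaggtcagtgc
Isg15: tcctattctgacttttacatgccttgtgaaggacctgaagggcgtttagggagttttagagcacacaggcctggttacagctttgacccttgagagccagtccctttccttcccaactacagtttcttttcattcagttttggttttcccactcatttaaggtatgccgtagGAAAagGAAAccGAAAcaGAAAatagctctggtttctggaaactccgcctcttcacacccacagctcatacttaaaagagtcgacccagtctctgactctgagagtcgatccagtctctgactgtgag
Oas1a: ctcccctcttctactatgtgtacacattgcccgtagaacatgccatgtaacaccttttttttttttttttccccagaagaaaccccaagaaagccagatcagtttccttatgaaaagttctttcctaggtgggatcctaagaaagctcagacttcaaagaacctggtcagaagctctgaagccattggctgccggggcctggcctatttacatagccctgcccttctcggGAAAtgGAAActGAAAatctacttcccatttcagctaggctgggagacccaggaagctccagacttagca
Rsad2: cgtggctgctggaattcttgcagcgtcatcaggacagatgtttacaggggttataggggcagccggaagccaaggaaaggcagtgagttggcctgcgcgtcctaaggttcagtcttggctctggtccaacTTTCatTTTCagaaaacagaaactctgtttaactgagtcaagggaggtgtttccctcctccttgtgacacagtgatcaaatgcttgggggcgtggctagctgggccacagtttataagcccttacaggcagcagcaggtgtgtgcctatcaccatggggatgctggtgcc
Ifit3 and Ifit3b each held a pair of separate matches, starting at -156 and -122 and at -188 and -154 relative to the gene's start. Isg15 held 3 overlapping matches made of 4 blocks in a row, and Oas1a held 2 overlapping ones right before its start. Rsad2 held a single match at -120. A match describes the letters in the window and does not show that a factor was bound there.

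Levels set per kilobase of exon in control mice show how unequal the tissues are at baseline. Cortex was the lowest of the 4 tissues for 30 members. Ifi27l2a had a median of 1.67 CPM per kilobase in control cortex, 28.8 in control kidney, 21.1 in control liver and 1970 in control WAT. Bst2, the tetherin that holds budding enveloped viruses on the cell surface, had 3.16 in control cortex, 20.7 in control kidney, 166 in control liver and 54.3 in control WAT. Stat2 was more even, with 5.09, 4.06, 11.7 and 7.02 CPM per kilobase in control cortex, kidney, liver and WAT. Oas3 was scarcely detected in any tissue, with a highest median of 0.105 CPM per kilobase in control WAT.

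In cortex, part of the list was higher in TLS mice than in control mice. Of the 30 members with enough counts to test, 12 rose and none fell at an adjusted p below 0.05 in edgeR's quasi-likelihood test with Benjamini-Hochberg adjustment over all genes, where 5.41% of the 16609 genes tested were called. Log2 fold changes were positive for 28 of 30 members, with a median of 0.62, against a median of 0.002 and 50.6% positive over all genes tested. By class, 2 of 4 members of the IFIT family, 2 of 3 tested members of the OAS family, 5 of 11 tested other antiviral effectors, 1 of 4 members of the ISG15 and ubiquitin system and 2 of 3 members of the PARP9 axis rose, and none of the 2 tested sensors or the 3 transcription factors passed the test. Mx1, Oas3, Oasl1 and Zbp1 had too few counts in cortex to be tested. In whole tissue, more cells of a type and more RNA per cell cannot be told apart.

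**Figure D1:**
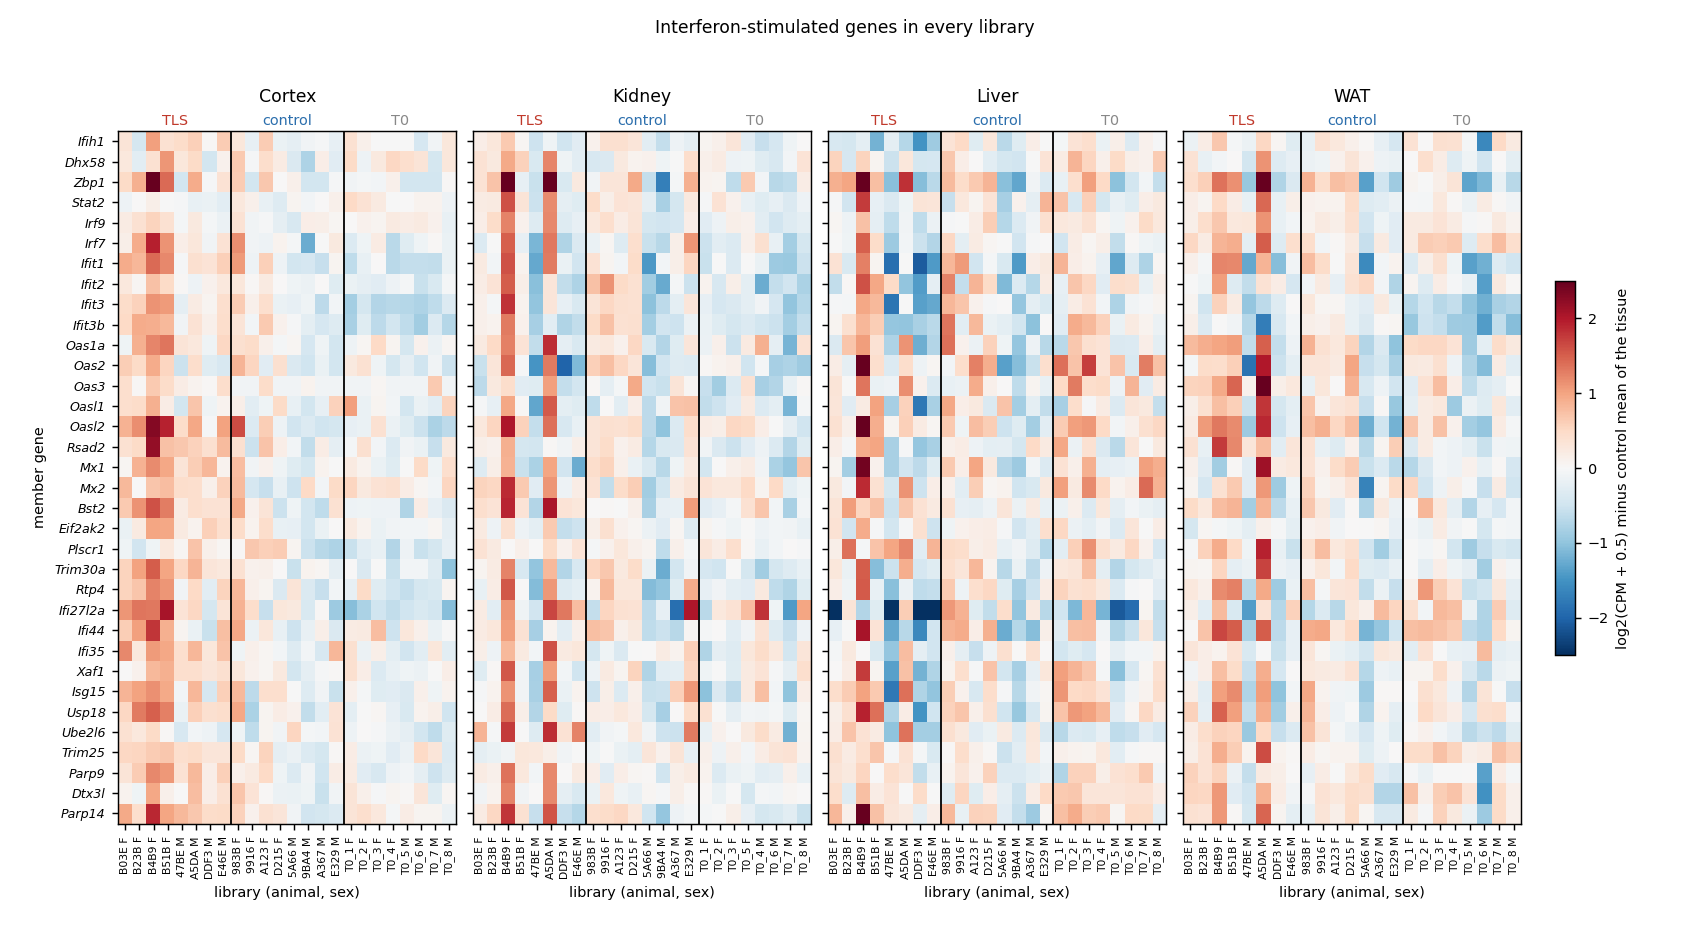
Each cell is 1 library's log2(CPM + 0.5) for 1 of the 34 genes minus the mean of the control libraries of that tissue, with colours limited to the range from -2.5 to 2.5; libraries are named by animal and sex. The red columns are TLS animal B4B9 in all 4 tissues and A5DA in kidney and WAT, and in cortex the red shade runs over most TLS libraries.

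Parp14, an ADP-ribosyltransferase induced by interferon, had the smallest adjusted p. It lay at 4.33, 5.54 and 12.8 CPM (lowest, median and highest) in TLS cortex, against 2.07, 3.12 and 4.83 CPM in control cortex and 2.76, 3.43 and 4.32 CPM in T0 cortex. Every TLS library was above the control median, the highest being B4B9, and the TLS and control ranges overlapped at their edge. The log2 fold change of TLS against control was 0.97 ± 0.167 (SE, n = 8 each, adjusted p = 0.00264). Parp9, which works in a complex with the ubiquitin ligase Dtx3l, had 3.33, 4.74 and 7.36 CPM in TLS cortex against 1.93, 2.98 and 4.33 CPM in control cortex, with overlapping ranges and a log2 fold change of 0.74 (adjusted p = 0.0117). Dtx3l itself did not pass the test. The exons of Parp9 and Dtx3l overlap by 458 bases on opposite strands, and no source used here says whether the counting used strand.

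Among direct antiviral effectors, Trim30a, a mouse TRIM protein known to restrain signalling from Toll-like receptors, had 2.56, 3.69 and 6.81 CPM in TLS cortex, against 1.23, 2.18 and 2.83 CPM in control cortex and 0.768, 1.74 and 2.08 CPM in T0 cortex. All 8 TLS libraries were above the control median and all were above the highest T0 library. Its log2 fold change against control was 0.90 ± 0.191 (adjusted p = 0.00988). Rsad2 (viperin), which makes a chain-terminating nucleotide that stops viral polymerases, had 1.5, 1.9 and 6.64 CPM in TLS cortex against 0.518, 1.1 and 2.03 CPM in control cortex. The TLS mean of 2.42 ± 1.72 CPM (SD, n = 8), against 1.12 ± 0.51 CPM in controls, holds the library of B4B9, alone at the top, and all 8 TLS libraries exceeded the control median. Rsad2 had a log2 fold change of 1.08 ± 0.29 (adjusted p = 0.0294). Bst2 had 3.34, 4.38 and 9.63 CPM in TLS cortex against 1.66, 2.85 and 5.96 CPM in control cortex, with all 8 TLS libraries above the control median and overlapping ranges (log2 fold change 0.79, adjusted p = 0.0268). Ifi35 and Xaf1, 2 smaller interferon-induced proteins, rose with log2 fold changes of 0.80 (adjusted p = 0.0203) and 0.47 (adjusted p = 0.0436). The call for Xaf1 was lost in 11 of 16 fits that left out 1 animal, all but those without TLS B23B or B03E or control 983B, A123 or D215. That for Rsad2 was lost in 6 of 16, without TLS B4B9 or E46E or control 9BA4, E329, 9916 or 5A66, and that for Bst2 in 3, without TLS B4B9 or control A367 or 9BA4.

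The OAS family makes short chains of adenylate that activate RNase L to destroy RNA. Oasl2 had 3.2, 6.97 and 18 CPM in TLS cortex, against 2.16, 2.46 and 11.2 CPM in control cortex and 1.68, 2.66 and 4.41 CPM in T0 cortex. All 8 TLS libraries were above the control median, and 1 control, the F animal 983B, lay far above the other controls and inside the TLS range. The log2 fold change was 1.14 ± 0.261 (adjusted p = 0.0155). Oas1a, at a lower level, had 0.355, 0.746 and 1.84 CPM in TLS cortex against 0.175, 0.425 and 0.775 CPM in control cortex, with overlapping ranges (log2 fold change 1.04, adjusted p = 0.0483). That call was lost in 14 of 16 fits with 1 animal left out, all but those without TLS DDF3 or B03E, and by limma. Of its 50-base exon windows, 57.6% also occur in Oas1g, so its counts may be shared with that gene.

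The IFIT proteins bind viral RNA that lacks the host's cap methylation. Ifit1 had 2.48, 4.45 and 7.58 CPM in TLS cortex, against 1.53, 2.27 and 5.81 CPM in control cortex and 1.39, 1.5 and 2.53 CPM in T0 cortex. Ifit3b had 6.13, 9.28 and 12.9 CPM in TLS cortex, against 4.76, 6.33 and 10.7 CPM in control cortex and 3.38, 4 and 5.23 CPM in T0 cortex. In both genes TLS had the highest median, control the next and T0 the lowest, and the TLS and control ranges overlapped. Their log2 fold changes against control were 0.76 ± 0.201 (adjusted p = 0.0277) and 0.52 ± 0.13 (adjusted p = 0.0207). The call for Ifit1 was lost without TLS B4B9 or E46E or control A367, 9BA4 or 5A66, each alone, and that for Ifit3b without control E329. Ifit3 (9.17, 14.9 and 24.3 CPM in TLS cortex against 6.74, 10.2 and 17.1 CPM in control cortex) missed the threshold with a log2 fold change of 0.49 (adjusted p = 0.0503). Ifit3 shares 51.2% of its 50-base exon windows with Ifit3b, and Ifit3b shares 44.5% of its own with Ifit3, so the split of reads between them is uncertain. Both lie with Ifit1 and Ifit2 in a gene cluster on chromosome 19 (GENCODE vM21, build GRCm38), and Ifit2 had a log2 fold change of 0.24 (adjusted p = 0.146).

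The ISG15 system tags proteins with a ubiquitin-like modifier. Trim25, the ubiquitin ligase that activates the RNA sensor RIG-I, had 7.1, 8.16 and 9.31 CPM in TLS cortex against 4.09, 5.47 and 8.57 CPM in control cortex, with overlapping ranges (log2 fold change 0.48, adjusted p = 0.0474). The call was lost in 13 of 16 fits with 1 animal left out, all but those without TLS B23B or control 983B or A123. Isg15, the modifier itself, had 0.755, 2.52 and 3.21 CPM in TLS cortex against 0.564, 1.13 and 2.47 CPM in control cortex and did not pass the test (adjusted p = 0.0746). Usp18, which removes ISG15 and also blocks the interferon receptor, had 0.709, 1.5 and 3.32 CPM in TLS cortex against 0.282, 0.946 and 2.16 CPM in control cortex (adjusted p = 0.0595). Ube2l6, the conjugating enzyme for ISG15, had nearly equal medians of 4.78 CPM in TLS cortex and 4.62 CPM in control cortex.

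The transcription factors and sensors at the top of the response did not pass the test in cortex. Stat2 had 24.3, 28 and 32.6 CPM in TLS cortex against 23.4, 30.2 and 35.5 CPM in control cortex, and Irf9 had 10.1, 13.1 and 16.6 CPM against 8.32, 11.2 and 14.4 CPM. Irf7, which drives transcription of the interferon alpha genes, had 2.17, 3.07 and 10.4 CPM in TLS cortex against 0.712, 2.29 and 5.86 CPM in control cortex (log2 fold change 0.68 ± 0.28, adjusted p = 0.145), its highest TLS library being B4B9. Ifih1 (MDA5), a sensor of long double-stranded RNA, had 3.15, 6.12 and 9.52 CPM in TLS cortex against 3.73, 4.02 and 7.23 CPM in control cortex (adjusted p = 0.139), with overlapping ranges. Of the other members, Zbp1 was detected at 0, 0.627 and 3.38 CPM in TLS cortex against 0, 0.185 and 0.599 CPM in control cortex, too low to test. Dhx58, Oas2, Mx2, Plscr1, Rtp4, Ifi44 and Dtx3l were tested and did not pass, with log2 fold changes between 0.03 (Plscr1) and 1.06 (Ifi44). Mx1 and Mx2 encode dynamin-like GTPases, and Mx2 is annotated as a polymorphic pseudogene in this strain's reference genome. Ifi27l2a had the highest fold change of the list, 1.19 on the log2 scale, at an adjusted p of 0.0596, and Eif2ak2 (PKR), which halts translation on sensing double-stranded RNA, had 0.48 at an adjusted p of 0.0578.

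**Figure D2:**
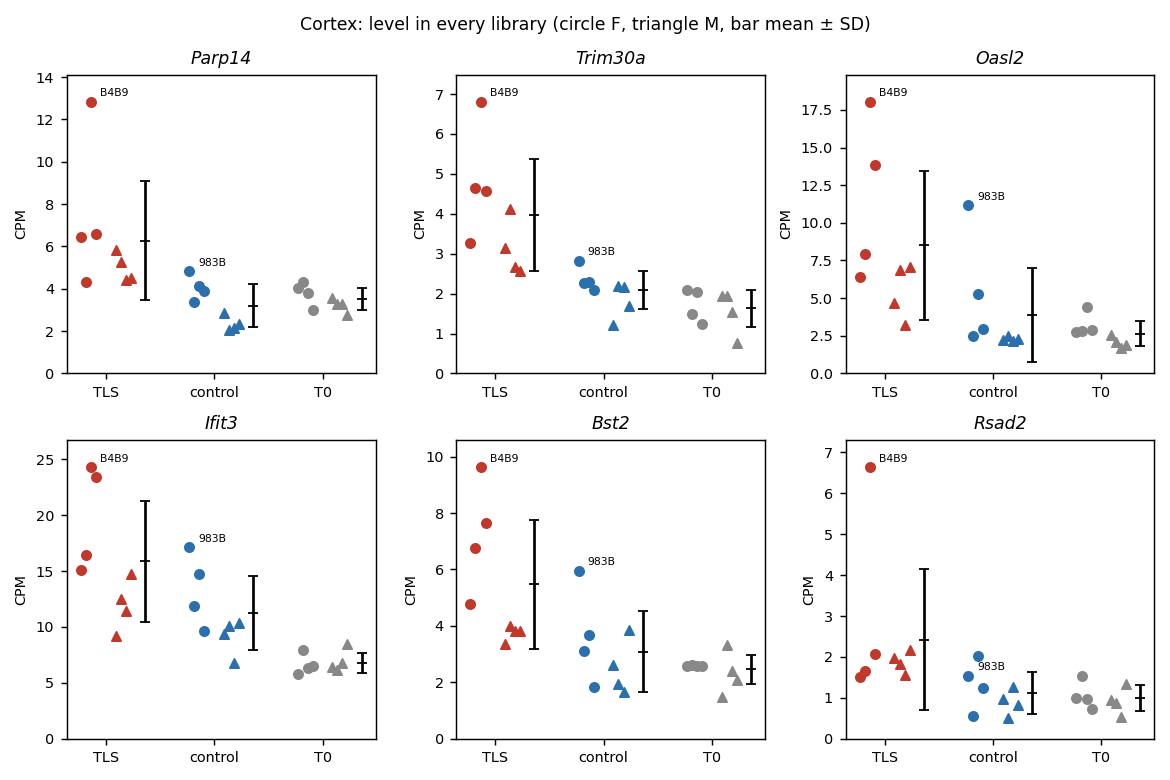
Each point is 1 cortex library (circle F, triangle M) in CPM for Parp14, Trim30a, Oasl2, Ifit3, Bst2 and Rsad2, in TLS, control and T0 mice; bars give the mean and SD. For Parp14 the 8 TLS libraries reach 12.8 CPM and the control libraries 4.83 CPM, with B4B9 on top of the TLS group in all 6 genes and 983B high among controls.

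Several settings move the count in cortex. Without B4B9 and A5DA, a choice made after their values were seen, 2 members rose against control, Parp14 and Trim30a, where 2% of all genes were called, and the median over the 30 members was 0.48 with 27 positive. With any 1 animal left out, 6 to 16 members rose: 6 without TLS animal B4B9 or control 9BA4, 7 without control E329 and 16 without control 983B. The share of all genes called was not counted in those fits. Taken by sex, 12 of 27 tested members rose in M, where 20.4% of all genes were called, and none of 32 in F, where 0.012% were; the median log2 fold changes were 0.61 in M and 0.75 in F. With the share of nuclear RNA added to the model none passed the test and 0.012% of all genes did. The folds in that model had a median of 0.53 with 29 of 30 positive, among them 0.74 for Parp14, 0.93 for Trim30a, 0.95 for Oas1a, 0.59 for Parp9 and 0.32 for Ifit3b. In cortex that share was lower in every TLS library than in every M control and every T0 library. Genes that mark microglia moved with the list. In TLS cortex against control 7 of 10 rose, where 5.41% of all genes were called. Among them were Cx3cr1 (log2 fold change 0.52 ± 0.103, adjusted p = 0.00786), Csf1r and Tmem119. Without B4B9 and A5DA, 5 of the 10 microglia markers rose. Their summed level was 429.4 to 637.0 CPM in TLS cortex against 335.2 to 444.2 CPM in control cortex and 312.1 to 369.7 CPM in T0 cortex, and none of the 10 was at 0. Of the macrophage markers, 4 of 7 tested rose (4 of 8 without B4B9 and A5DA), Ctss, Mpeg1, Lyz2 and Adgre1, with summed levels of 125.4 to 256.6 CPM in TLS cortex against 102.1 to 134.9 CPM in control cortex, and the Kupffer cell marker Clec4f was at 0. B4B9 and A5DA had the highest and next highest sums of both lists. The part of these cells and of the nuclear RNA share in the result was not tested.

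Between control and T0 cortex 3 of 30 members were called, all higher in controls, a share below the 21.2% of all genes tested that were called. Ifit3 rose by a log2 fold change of 0.69 ± 0.154 (adjusted p = 0.00248) and Ifit3b by 0.66 ± 0.135 (adjusted p = 0.00114). All 8 control libraries of Ifit3 were above the T0 median, and the control range of 6.74 to 17.1 CPM overlapped the T0 range of 5.8 to 8.45 CPM. Ifi27l2a had 0.117, 0.771 and 1.59 CPM in control cortex against 0.0496, 0.288 and 0.388 CPM in T0 cortex (log2 fold change 1.57 ± 0.463, adjusted p = 0.0166), with overlapping ranges. None of the 30 fell. In M libraries alone the calls for Ifit3, Ifit3b and Ifi27l2a were each lost, where 6.95% of all genes were called.

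TLS cortex set against T0 cortex gave 20 members higher and 1 lower of 30, where 35.7% of all genes tested were called. This comparison shares its TLS libraries with the one against controls and its T0 libraries with the one of controls, so the 3 sets of values are not independent. Ifi27l2a had the highest fold change, 2.76 ± 0.438 (adjusted p = 2.77e-05), with 0.355, 1.56 and 4.29 CPM in TLS cortex against the T0 values above. Oasl2 rose by 1.62 (adjusted p = 6.68e-05), Ifit1 by 1.34 (adjusted p = 2.17e-05), Ifit3b by 1.19 (adjusted p = 4.14e-07) and Ifit3 by 1.18 (adjusted p = 3.28e-06), all on the log2 scale. For 5 members, Ifit3, Ifit3b, Bst2, Trim30a and Parp14, every TLS library lay above every T0 library, as did 3.2% of all genes tested. Stat2 was the member that fell, with 24.3, 28 and 32.6 CPM in TLS cortex against 27, 31.4 and 42 CPM in T0 cortex (log2 fold change -0.23, adjusted p = 0.0301), and its ranges overlapped. That call was lost in 7 settings, among them limma and leaving out TLS E46E or B03E, T0_1 or T0_2, and the fold turned to 0.08 with the nuclear RNA share in the model. Each of the 12 members that rose against control also rose against T0. Without B4B9 and A5DA the counts were again 20 higher and 1 lower, where 32.6% of all genes were called, with a median log2 fold change of 0.71. With the nuclear RNA share in the model, 5.21% of all genes were called. The members that kept their call there were Ifit1, Ifit3, Ifit3b, Bst2, Trim30a, Ifi27l2a and Ifi35. The part of that share in this comparison was not tested.

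**Figure D3:**
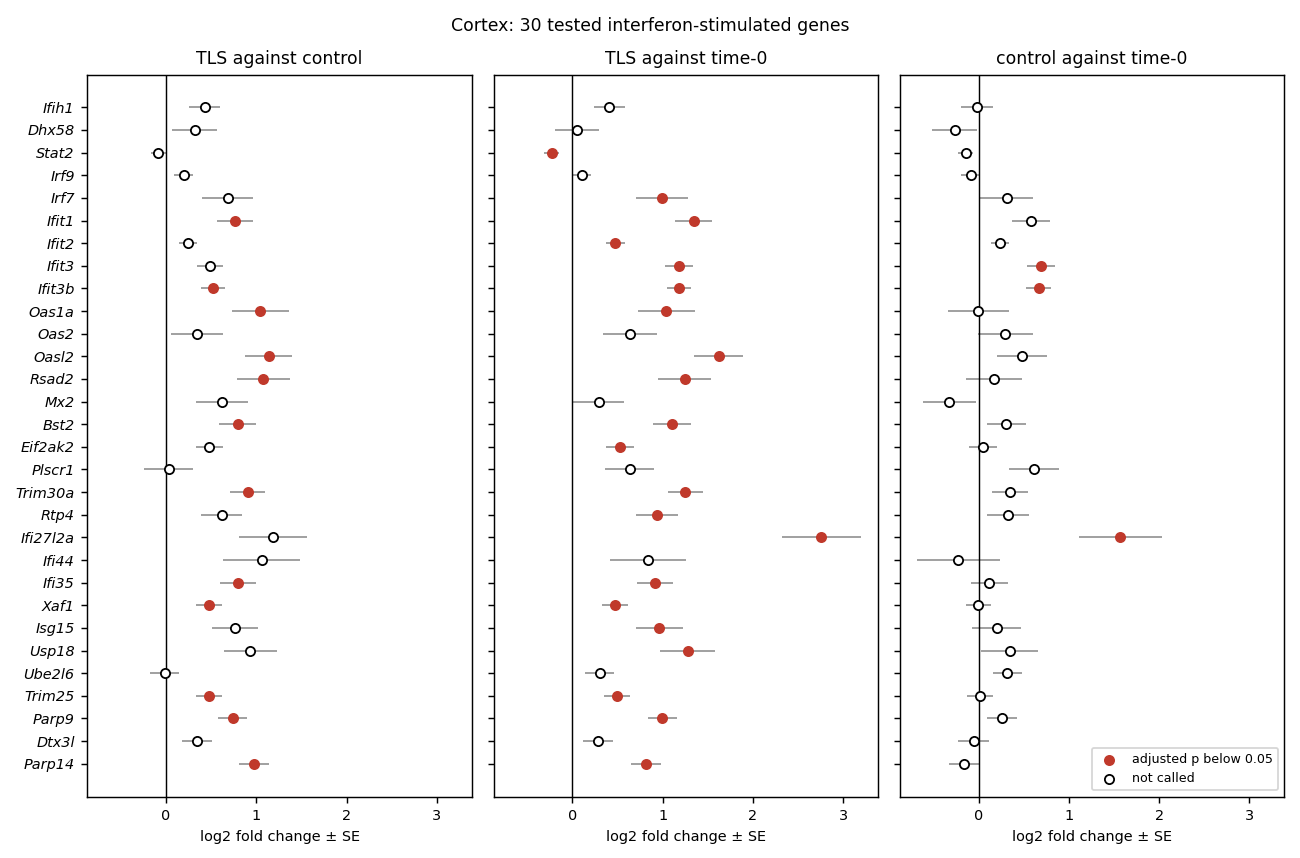
Log2 fold changes with their SE for the 30 tested members in cortex, for TLS against control, TLS against T0 and control against T0; filled points have an adjusted p below 0.05. Filled points number 12, 21 and 3, and in the middle panel Ifi27l2a lies farthest to the right at 2.76 and Stat2 alone is filled on the left at -0.23.

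In kidney no member passed the test between TLS and control mice. Of 33 tested, 30 had positive log2 fold changes, with a median of 0.28, where 0.231% of all genes tested were called and the median over all genes was 0.01. At an unadjusted p below 0.05 there were 9 of 33 in edgeR, beside 1353 of all 16005 genes tested. DESeq2 and limma also called 0. Parp9 had the smallest p, with 14.4, 17.7 and 39.8 CPM in TLS kidney against 10.7, 16.3 and 18 CPM in control kidney (adjusted p = 0.400). Ifit3 had 17.6, 35.8 and 124 CPM in TLS kidney against 17, 44 and 50.8 CPM in control kidney, so that its TLS median was the lower one while its highest TLS library, B4B9, was more than any control. Without B4B9 and A5DA the median over the members was -0.11, with 8 of 33 positive. Against T0, edgeR called none of 33 in TLS kidney (0.681% of all genes called, smallest adjusted p 0.0899 for Parp9). At an unadjusted p below 0.05 there were 16, beside 2420 of all 16005 genes, and DESeq2 called 1 and limma 6. In control kidney against T0 edgeR called none either (0.312%, smallest adjusted p 0.297 for Ifit3b). Here 3 of 33 had an unadjusted p below 0.05, a share not above that of all genes (1804 of 16005). DESeq2 called none and limma 4.

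In liver, 1 of 34 members passed the test, and it fell, where 1.95% of all genes tested were called. Ifih1 had 5.67, 11.2 and 14.2 CPM in TLS liver, against 10.4, 18 and 24.1 CPM in control liver and 13.2, 17.5 and 22.9 CPM in T0 liver. No TLS library reached the control median or the T0 median, and the ranges overlapped. The log2 fold change was -0.70 ± 0.184 against control (adjusted p = 0.0467) and -0.74 against T0 (adjusted p = 0.0403), where 1.34% of all genes were called. The call against control was lost in 17 of 27 settings, among them M alone, F alone, B4B9 and A5DA left out, and any 1 animal left out other than TLS A5DA, B23B or 47BE or control A123 or 5A66. That against T0 was lost in 15 of 27, among them any 1 animal left out other than TLS B4B9, B23B or 47BE, T0_1, T0_4 or T0_6. The fold stayed between -0.80 and -0.61 against control in all 27. Over the 34 members the median was 0.17, with 22 positive, and -0.24 with 7 positive without those animals, while the median over all genes was 0.08. Stat2, with 46.6, 62.1 and 220 CPM in TLS liver against 36.6, 69.5 and 118 CPM in control liver, and Zbp1, a sensor of Z-form nucleic acid, with 3.29, 13.5 and 74 CPM against 2.75, 8.72 and 13.8 CPM, had their highest library in B4B9. Between control and T0 liver none of 34 passed, where 0.529% of all genes were called, and Mx2 had the smallest adjusted p, 0.24. An unadjusted p below 0.05 was found for 4 of 34 members, a share not above that of all genes (2057 of 13604). DESeq2 called none and limma 1.

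In WAT no member passed the test between TLS and control mice, where 0.00596% of all genes tested, a single gene, were called. The median over the 34 members was 0.36 with 29 positive, against 0.04 over all genes. In edgeR 9 members had an unadjusted p below 0.05, beside 1857 of all 16784 genes tested, and DESeq2 and limma called none. Oas3 had 0.958, 1.51 and 10 CPM in TLS WAT against 0.474, 0.746 and 1.98 CPM in control WAT (adjusted p = 0.242), its highest library being A5DA, and the ranges overlapped. Without B4B9 and A5DA the median was 0.005, with 17 of 34 positive. Ifi27l2a, the most abundant of the list per length in WAT, had 318, 815 and 1460 CPM in TLS WAT against 514, 913 and 1460 CPM in control WAT. Control WAT against T0 WAT called 1 member, where 0.161% of all genes were called. Ifit3 had 30.7, 39 and 46.1 CPM in control WAT against 16, 22.6 and 26.6 CPM in T0 WAT, so all 7 controls lay above all 8 T0 libraries (log2 fold change 0.78 ± 0.156, adjusted p = 0.0385). The call was lost in 18 of 27 settings, among them any 1 animal left out other than control D215 or T0_6, with folds between 0.69 and 0.88 throughout. Ifit3b likewise had 10.9, 14.6 and 16.5 CPM in control WAT against 5.03, 7.33 and 9.62 CPM in T0 WAT, without overlap (adjusted p = 0.0579). Such separation upward was found for 0.179% of all genes tested. TLS WAT against T0 WAT gave no call of 34, where 0.226% of all genes were called, with Ifit3 at an adjusted p of 0.0658. At an unadjusted p below 0.05 were 9 members, beside 2196 of all 16784 genes, and DESeq2 called 4 and limma 2.

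Whether TLS moved the list differently in different tissues was tested in 1 fit of all TLS and control libraries. Ifih1 differed between cortex and liver, by 1.12 ± 0.256 on the log2 scale (adjusted p = 0.017), being 0.43 above control in cortex and 0.70 below it in liver; 1.47% of 20294 genes were called in that comparison. No member was called for cortex minus kidney, where 0.00493% of genes were called, or for cortex minus WAT, where 0.429% were. There 5 and 4 members had an unadjusted p below 0.05, which was not counted over all genes. No member was called by limma either. Over the 3 differences together Ifih1 alone was called (adjusted p = 0.0311), with 2.43% of all genes. The same animals gave the 4 tissues. With the animal as a replicate block, 3 members were called for cortex minus liver, Ifi35, Ifih1 and Ifit1, and with limma none were. The call for Ifih1 there was lost without TLS E46E or control 9916 or A367. Calls in cortex and none in kidney or WAT are therefore not a shown difference between those tissues.

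Of the TLS animals named at the outset, B4B9 was the highest library for many members in each tissue. A5DA was so in kidney and WAT. B4B9 was the highest of all libraries for 19 of 30 tested members in cortex, 21 of 33 in kidney, 20 of 34 in liver and 8 of 34 in WAT, while it was the highest for 6.45%, 4.31%, 12.5% and 3.59% of all tested genes in those tissues. Over the 34 members, 6 had their highest library in B4B9 in all 4 tissues: Dtx3l, Ifi44, Ifit1, Ifit2, Ifit3 and Usp18. A5DA was the highest for 1 of 30, 10 of 33, 3 of 34 and 17 of 34 members in cortex, kidney, liver and WAT, and for 5.48%, 13.8%, 14.5% and 18% of all tested genes there. In cortex and liver its share of the members was thus below its share of all genes. Against the median of the other TLS animals of its sex, B4B9 stood at median folds over the members of 1.43, 2.57, 1.97 and 1.38 in cortex, kidney, liver and WAT, and A5DA at 1.19, 2.88, 1.61 and 3.12.

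The pair were alike in some of the genes around the list and unlike in others. Genes that lean to interferon gamma, such as Gbp2 and Ubd, summed to 227.5 CPM in cortex, 1116 CPM in kidney, 2775 CPM in liver and 1086 CPM in WAT of B4B9, the highest library in each tissue, against highest controls of 37.22, 200.4, 424 and 334.9 CPM. A5DA was next to it in kidney (843.8 CPM) and WAT (1060 CPM), but not in cortex (34.86 CPM) or liver (235.5 CPM). Gbp2 was 62.4 CPM in its cortex, against a median of 5.24 CPM in the other TLS F animals. A5DA had the highest summed neutrophil and acute phase markers in each tissue. The neutrophil protein S100a9 was at 664.8 CPM in liver and 951.4 CPM in WAT of A5DA, against medians of 0.823 and 2.63 CPM in the other TLS M animals. The acute phase gene Saa3 was at 10260 CPM in its liver against a median of 7.18 CPM. Ifng, which encodes interferon gamma itself, had 89 counts in the WAT of A5DA, of 127 over all WAT libraries. In cortex the median deviation of the 34 members from the control mean of the same sex was above 0 in all 8 TLS animals, between 0.261 and 0.884 on the log2 scale, against -0.156 to 0.314 in control animals, of which 4 of 8 were above 0. Control 983B (0.314) lay above TLS animals B03E (0.261) and DDF3 (0.262).

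**Figure D4:**
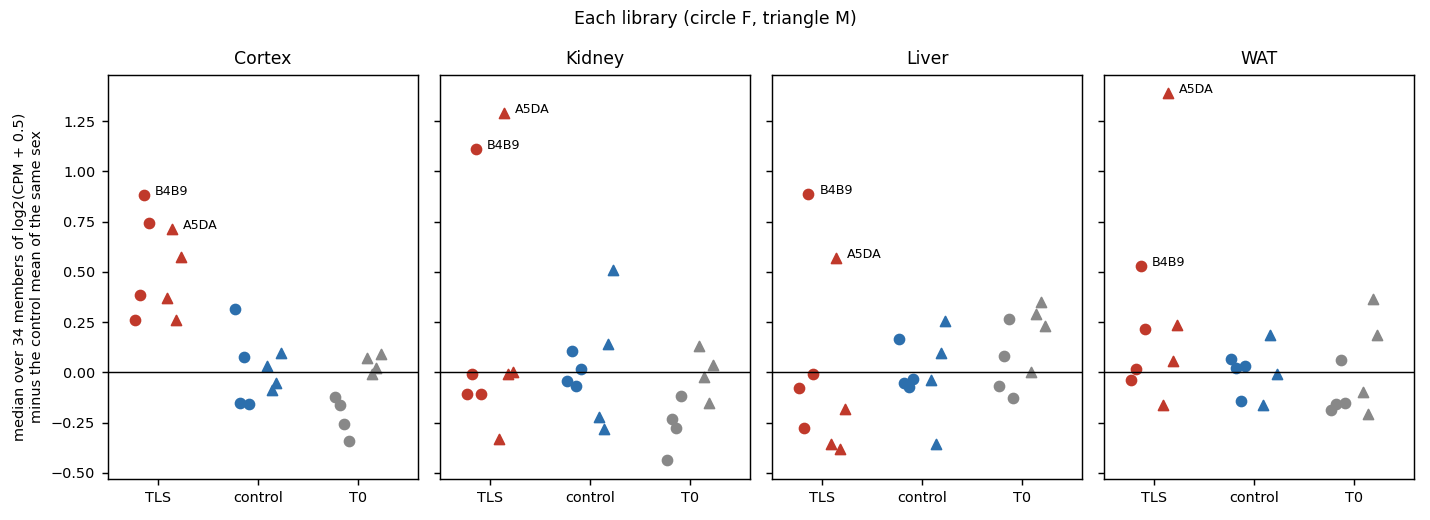
Each point is 1 library (circle F, triangle M): the median over the 34 members of log2(CPM + 0.5) minus the control mean of the same sex in that tissue. TLS cortex libraries lie between 0.261 and 0.884 and control ones reach 0.314, whereas in kidney A5DA (1.29) and B4B9 (1.11) lie above all others, the next being 0.51.

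The rest of the pathway was described from lists of other genes. Between TLS and control, 5.41% of all genes tested were called in cortex, 1.95% in liver and 0.231% in kidney. Without B4B9 and A5DA these shares were 2%, 1.46% and 0.191%. Interferon ligands could not be tested in any tissue: the 20 listed genes summed to 10 counts over all cortex libraries, 39 in kidney, 29 in liver and 131 in WAT. Ifng, which is not a type I interferon gene, made up 2, 36, 25 and 127 of these counts. Of the receptors and signalling kinases, 0 of 9 tested passed in edgeR between TLS and control cortex, with a median log2 fold change of 0.04. An unadjusted p below 0.05 was found for 3 of them and for 3745 of all 16609 genes tested. Nucleic acid sensing genes rose for 3 of 13 in TLS cortex: the endosomal RNA and DNA sensors Tlr7 (0.66, adjusted p = 0.0248) and Tlr9 (0.92, adjusted p = 0.0275) and their adaptor Myd88 (0.41, adjusted p = 0.0393). Without B4B9 and A5DA none of the 13 was called, with 4 at an unadjusted p below 0.05, which was not counted over all genes. Of the brakes on the pathway, 1 of 7 rose in TLS cortex, the phosphatase Ptpn6 (0.56, adjusted p = 0.0301), and 1 of 7 in TLS liver, Socs3 (1.67, adjusted p = 0.0467); without the pair neither was called, with folds of 0.41 and 0.90. Among 28 other interferon-induced genes tested in cortex, 7 rose and none fell, with a median of 0.41; Cmpk2 (0.45, adjusted p = 0.00364) had the smallest p, and Trim34a (1.10) and Epsti1 (1.09) were among those that rose. Without the pair 1 of the 28 rose, Cmpk2 (0.45, adjusted p = 0.0174). Of the genes that lean to interferon gamma, 4 of 5 tested rose in cortex, Gbp3 (1.30, adjusted p = 0.0177), Iigp1 (1.92, adjusted p = 0.0242), Irgm1 (0.73, adjusted p = 0.0356) and Gbp2 (1.88, adjusted p = 0.039), and 1 of 8 rose in kidney, Ubd (3.27 ± 0.646, adjusted p = 0.0293). Without the pair 2 of those 5 rose in cortex, Gbp3 (0.91) and Iigp1 (0.93), Gbp2 was at 0.76 (adjusted p = 0.089), and Ubd in kidney was at 1.67 with an adjusted p just under the threshold. Markers of T and NK cells (3 tested) and of blood vessel endothelium (8 tested) gave no call between TLS and control cortex, and of the neutrophil markers 1 of 2 tested rose, S100a9 (3.10, adjusted p = 0.0264). The summed neutrophil markers of cortex were 69.12 CPM in A5DA and 15.77 CPM in B4B9, the next library, and without the pair S100a9 was at 1.55 (adjusted p = 0.0926). Of the nuclear RNAs, Meg3 fell (-0.75, adjusted p = 0.0178). Of 5 tested genes listed as markers of plasmacytoid dendritic cells, known as strong interferon producers, Tcf4 fell (-0.24, adjusted p = 0.0359). Without the pair neither call held, at -0.63 and -0.25 (adjusted p = 0.0712 and 0.0682). That marker list summed to 407260 counts over the cortex libraries and 66705 in WAT, and its Siglech is also listed for microglia. Whether plasmacytoid dendritic cells changed was not tested.

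The sex label was tested in the same fits, a test added after the values were seen. Of the members called, all but 2 were lower in M than in F libraries. In liver 11 of 34 members were lower in M and none higher, where 6.4% of all genes were called, with a median log2 difference of -0.60, against 0.01 over all genes. In kidney 11 of 33 were lower and 2, Ifi35 and Trim25, were higher in M, where 46.8% of all genes were called, so the share is below that of all genes. In WAT 6 of 34 were lower, where 11.8% of all genes were called, and in cortex 1 of 30, Oas2, where 0.126% of all genes were called and none of the 30 members had a positive difference.

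Usp18 in liver had 1.13, 3.12 and 6.03 CPM in M libraries against 4.53, 6.98 and 16.8 CPM in F libraries (n = 12 each), overlapping at the edge, with a log2 difference of -1.20 ± 0.233 (adjusted p = 0.000968). Ifi44 in liver had 0.324, 1.05 and 2.56 CPM in M against 1.55, 3.2 and 9.92 CPM in F (-1.63 ± 0.338, adjusted p = 0.00206). In both genes the M median lay below the lowest F library. Ifit2 in kidney had 3.83, 5.9 and 12.2 CPM in M against 7.33, 11.9 and 29 CPM in F (-1.08 ± 0.193, adjusted p = 6.82e-05), and Rtp4 in WAT had 6.15, 8.42 and 23.2 CPM in M (n = 11) against 11.4, 15 and 28.9 CPM in F (-0.82 ± 0.208, adjusted p = 0.00979). The ranges overlapped in each case. Oas2 in cortex had 0.304, 0.399 and 1.08 CPM in M against 0.361, 1.09 and 1.72 CPM in F, again with overlap (-1.14 ± 0.244, adjusted p = 0.0495). In all 20 members were called in at least 1 tissue, 12 in 1 tissue, 5 in 2 tissues and 3 in 3 tissues, namely Ifi44, Oas2 and Oasl2. The share of all genes called in at least 1 tissue was not counted. In kidney alone it was 46.8%, so these counts do not set the list apart from other genes. Without B4B9 and A5DA, 1 member was called in cortex (0.106% of all genes), 16 in kidney (48.7%) and 13 in each of liver (8.92%) and WAT (14.1%). Within TLS mice alone 2 members were called in kidney (12.9% of all genes) and none in cortex (0.124%), liver (0.569%) or WAT (0.62%). Within control mice alone 11 were called in kidney (31.8% of all genes), 6 in WAT (6.28%), 5 in cortex (15.8%) and 1 in liver (3.39%). Within T0 mice alone no member was called; of all genes 9.33% were called there in kidney, 2.67% in liver, 1.79% in WAT and 0.0678% in cortex.

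**Figure D5:**
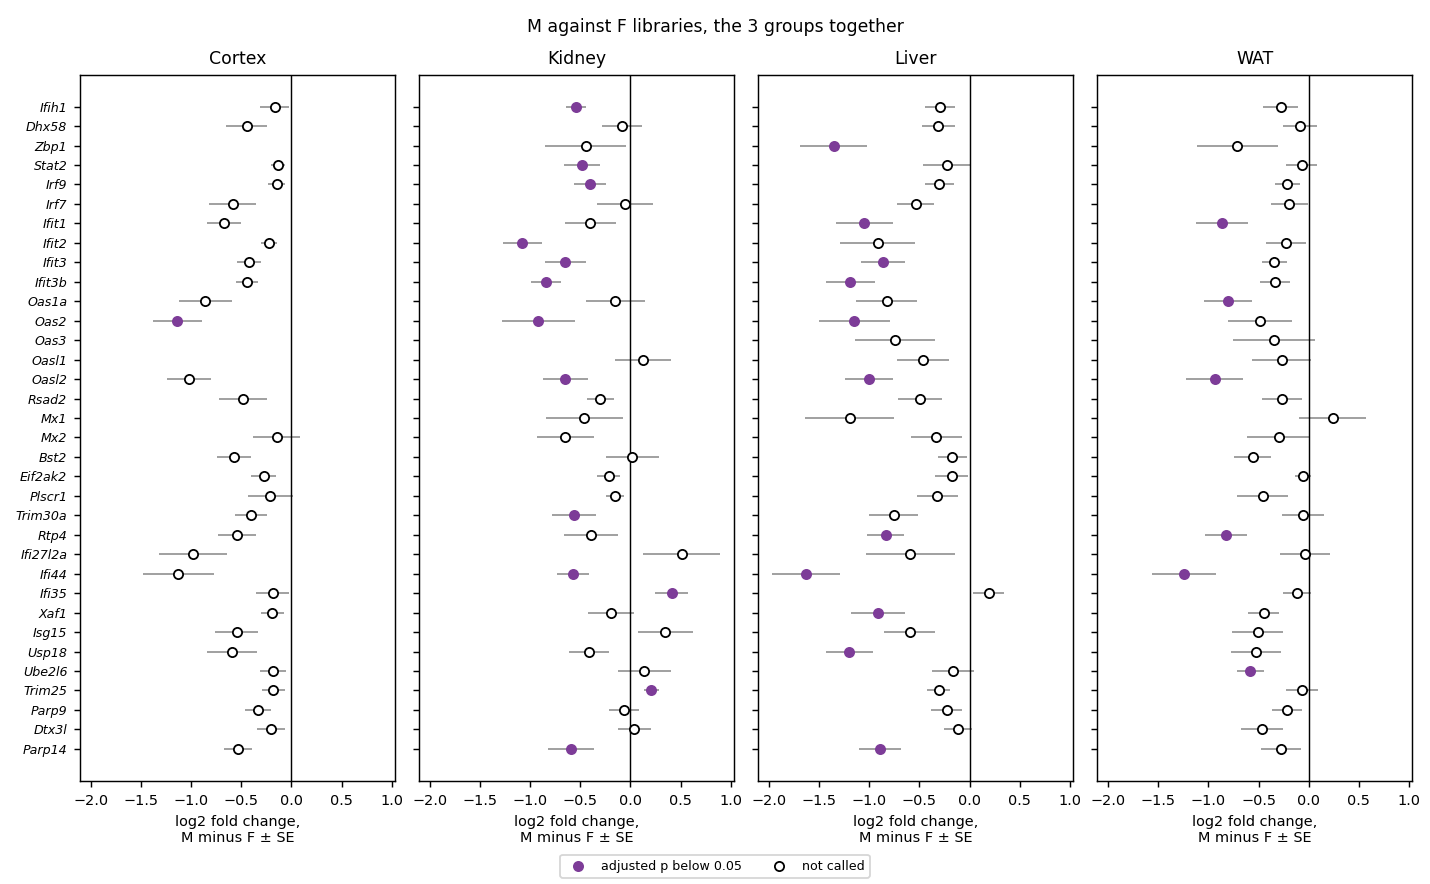
Log2 differences, M minus F, with their SE for each tested member in the 4 tissues, from the fits of all 3 groups; filled points have an adjusted p below 0.05. Points lie left of 0 for all 30 members in cortex, and the filled points number 1, 13, 11 and 6 in cortex, kidney, liver and WAT.

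The TLS effect itself differed by sex for 2 of 30 members in cortex, a share close to the 5.08% of all genes called for this interaction. Plscr1, a phospholipid scramblase with antiviral activity, had 1.61, 1.68 and 2.83 CPM in TLS M cortex against 0.7, 0.835 and 1.63 CPM in control M cortex. In F it had 0.962, 1.39 and 1.94 CPM in TLS cortex against 1.59, 2.62 and 2.75 CPM in control cortex. TLS was thus the higher group in M and the lower group in F, a difference of 1.69 (adjusted p = 0.0244, n = 4 per group and sex). Ube2l6 went the other way, with 3.5, 3.99 and 4.59 CPM in TLS M cortex against 4.58, 5.51 and 7.3 CPM in control M cortex, and 4.98, 6.2 and 6.97 CPM in TLS F cortex against 2.96, 4.52 and 5.11 CPM in control F cortex (-1.01, adjusted p = 0.0238). The call for Plscr1 was lost without control D215 or E329, and that for Ube2l6 without TLS E46E or control E329 or 5A66. The mean share of nuclear RNA was 0.613% in M and 0.311% in F control cortex, and 0.268% and 0.273% in M and F TLS cortex. Its part in this interaction was not tested. edgeR called no member for this interaction in kidney (0% of all genes), liver (0.00735%) or WAT (0%), where 0, 2 and 3 members had an unadjusted p below 0.05. Of all genes, 1326 of 16005, 840 of 13604 and 2563 of 16784 had such a p there. The share of the members was thus not above that of all genes in any of these tissues.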

How the data were processed

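Per the labels' protocols, polyadenylated RNA was prepared with an NEBNext kit for Illumina sequencing. The submitters' processing notes name STAR 2.7.10 and the builds mm10 and GRCm38. The authors deposited 1 table of whole-number read counts by gene symbol; the strand setting, the annotation and the word "corrected" in its first line are not explained in the sources used here. Ages come from the file headers.

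Counts were tested within each tissue in edgeR 4.0.16 (R 4.3.3): filterByExpr with a minimum count of 10, TMM scaling, robust quasi-likelihood fits of all 3 groups with sex as a covariate, and calls at an adjusted p (Benjamini-Hochberg, every tested gene) under 0.05. The SE is the log2 fold change divided by the square root of F. CPM are per TMM-scaled library size. The fit was checked on simulated counts. The TLS effect was compared between tissues in 1 joint fit; labels give the same animals in each tissue, so the animal was the replicate block of an alternative. DESeq2 1.42.0, limma 3.58.1, other scalings, filters and covariates, and leaving out animals were alternatives. Folds and p are given for called members and otherwise for up to 4 with the smallest p; further uncalled members given with a p were picked after their values were seen. No columns were left unused. The members and gene lists were chosen with earlier results of these data known. Replicates are separate animals, per the labels.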

Additional observations from a re-analysis of the deposited data

Results flagged for a closer look

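Within groups of 7 or 8 libraries, a library was picked out where its gap to its nearest neighbour, as a share of the group's range of log2(CPM + 0.5), passed Dixon's 95% critical value (0.526 for 8 libraries, 0.568 for 7). This happened in 29 of 393 groups. In independent groups chance alone would give about 1 in 20, or 19.6. These groups share their libraries and hold both sexes, so 29 cannot be judged against that number. TLS groups held 16 of the 29, control groups 6 and T0 groups 7.

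TLS animal B4B9 was the highest library in 11. In liver the gap shares were 0.641 for Stat2, 0.75 for Oas2, 0.664 for Oasl2, 0.707 for Mx1, 0.528 for Rtp4 and 0.611 for Parp14. In kidney they were 0.539 for Ifit3, 0.552 for Ifit3b and 0.545 for Rsad2, and in cortex 0.776 for Rsad2 and 0.622 for Parp14. TLS animal A5DA was the highest WAT library for Stat2 (0.578), Oas3 (0.529), Mx1 (0.622) and Trim30a (0.602), and the lowest for Ifit3b (0.545).

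Among controls, 5A66 was the lowest library for Ifit1 in kidney (0.691) and in WAT (0.644) and for Mx2 in WAT (0.774), and 9BA4 was the lowest for Plscr1 in kidney (0.637). Control E329 was the highest for Ifi35 in cortex (0.571) and for Ube2l6 in kidney (0.564). Among T0 libraries, the WAT of T0_6 was the lowest for Ifih1 (0.74), Ifit2 (0.653), Trim30a (0.629), Parp9 (0.77) and Dtx3l (0.728), T0_7 for Ube2l6 in kidney (0.613) and T0_5 for Dtx3l in kidney (0.547).

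Effects that differed between groups by a direct test were the cortex TLS effect of Plscr1, M minus F (1.69), that of Ube2l6 (-1.01), and the TLS effect of Ifih1, cortex minus liver (1.12). Of all genes, 5.08% were called for the cortex interaction with sex and 1.47% for cortex minus liver.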

How the results depend on the processing

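Each count of called members was recomputed under the alternatives, and the cause of a change was not tested unless named. Where neither this section nor the text above gives the share of all genes called, it was not counted for that setting. A change in the members is then not separated from a change over all genes. In cortex, TLS against control (12) gave 6 without the sex covariate and 0 in F alone (0.012% of all genes called). It gave 0 with the share of nuclear RNA in the model (0.012%) and 2 without B4B9 and A5DA (2%). TLS against T0 (21) gave 9 in M alone (17.8%) and 7 with the nuclear share (5.21%), where Stat2 turned to 0.0817. Control against T0 (3) gave 5 in F alone (17.8%) and 1 in M alone (6.95%), where each of the 3 called with both sexes lost its call. In kidney, limma gave 4 for control against T0 and 6 for TLS against T0, DESeq2 1 for TLS against T0 and F alone 1 for control against T0. In liver, TLS against control (1) gave 0 with no filter, without the sex covariate, with 2 groups only, in F and in M. It also gave 0 without B4B9 and A5DA (1.46% of all genes called), and 2 with limma or the nuclear share. TLS against T0 there (1) gave 0 with no filter, without the sex covariate, with 2 groups only, in F and in M, and 2 with DESeq2, and limma gave 1 for control against T0. In WAT, control against T0 (1) gave 0 with no filter, without the sex covariate, in M and with the nuclear share, and 2 with DESeq2. It gave 3 with limma, with 2 groups only and without B4B9 and A5DA (0.411% of all genes called without them). TLS against T0 there gave 4 with DESeq2 and 2 with limma. M against F gave 0, 2, 0 and 0 within TLS, 5, 11, 1 and 6 within controls and 0 in each tissue within T0 (cortex, kidney, liver, WAT), and 13 in WAT without B4B9 and A5DA. The 2 last choices were made after seeing the data. In the joint fit of TLS and control libraries, each animal name carries the same sex label in its tissues and was taken as 1 animal. With the animal as a replicate block, cortex minus liver gave 3, and the block changed no other count. With limma that difference gave 0, and so did the 3 differences together.

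With 1 library left out at a time, cortex gave 6 to 16 (TLS against control), 20 to 23 (TLS against T0), 3 to 4 (control against T0) and 0 to 2 (interaction with sex); kidney gave 0 to 0 and, for TLS against T0, 0 to 1; liver gave 0 to 3 and 0 to 2 for TLS against control and against T0; WAT gave 0 to 2 for TLS against T0 and 0 to 1 for control against T0; cortex minus liver gave 0 to 3 and the 3 differences together 0 to 2. Of 1711 refits of single members, 1425 kept direction and side of the threshold, 272 lost the call, 13 gained it and 1 reversed. These refits include members not called in the main fit, such as Ube2l6 for TLS against control in kidney, which had no call to lose. The 1425 is thus not a measure of how stable the calls were. Among members called for TLS against control in cortex, Parp14 lost its call in the fewest settings, 2 of 27. Oas1a lost it in the most, 21 of 25. Several members have few counts in cortex, where Oas1a had a median of 0.41 CPM in M and 0.61 CPM in F libraries. The spread between animals in kidney, liver and WAT also limits what could be detected.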

Other observations

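Among control animals, F animal 983B was the highest cortex library for 21 of 30 tested members, and its median deviation from the F control mean over the 34 members was 0.314 on the log2 scale in cortex, against 0.0656 in WAT. In TLS WAT, A5DA had 7629 CPM of summed macrophage markers and 222.5 CPM of summed T and NK cell markers, where the highest control libraries had 1342 and 32.7 CPM. In liver, the haptoglobin gene Hp, an acute phase gene, rose in TLS mice against controls (log2 fold change 2.26 ± 0.506, adjusted p = 0.0204), and Mrc1, a marker of resident macrophages, fell (-0.73 ± 0.196, adjusted p = 0.0492). Summed acute phase genes were 398900 CPM in the liver of A5DA, against a control median of 5458 CPM, and without B4B9 and A5DA the values were 1.05 ± 0.226 for Hp (adjusted p = 0.0146) and -0.86 ± 0.205 for Mrc1 (adjusted p = 0.03). Ifnb1, which encodes interferon beta, had 1 count over all kidney libraries, 3 in liver and none in cortex or WAT.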
